A study of Saccharomyces cerevisiae and Saccharomyces paradoxus and Saccharomyces cerevisiae x Saccharomyces paradoxus with 12 samples.

Results

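The Hsp90 and Hsp60 chaperones of yeast and a set of their cochaperones were followed at the level of mRNA and of ribosome occupancy in Saccharomyces cerevisiae, Saccharomyces paradoxus and their F1 hybrid. The set is a list of named genes: HSC82 (YMR186W), HSP82 (YPL240C), STI1 (YOR027W), HSP60 (YLR259C), HSP10 (YOR020C), MDJ1 (YFL016C), YDJ1 (YNL064C), SIS1 (YNL007C) and ZUO1 (YGR285C). It makes up 9 of the 5226 genes in the deposited table, and all 9 passed the filter on low counts that left 5158 genes for testing.

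Hsp90 is a dimeric cytosolic ATPase that completes the folding of kinases, transcription factors and other clients, and yeast carries it as a pair of near-identical genes, the largely constitutive HSC82 and the more strongly heat-inducible HSP82. Sti1 holds Hsp70 and Hsp90 together so that a client can pass from the former to the latter. Hsp60 forms the folding chamber of the mitochondrial matrix and Hsp10 is its lid, while Mdj1 is the J-domain partner of the matrix Hsp70. J-domain proteins bring substrates to Hsp70 and stimulate its ATPase: Ydj1 and Sis1 do so in the cytosol, and Zuo1 does so at the ribosome exit tunnel, where it pairs with the Hsp70 relative Ssz1. Many of these genes are targets of the heat shock factor Hsf1, which keeps several of them expressed also without stress.

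In the sacCer3 build, each of the 9 coding sequences is a single uninterrupted exonic block. HSC82 lies on chromosome XIII from 632355 to 634472 on the plus strand, and HSP82 on chromosome XVI from 96496 to 98625 on the minus strand. STI1 lies on chromosome XV from 381053 to 382822 on the plus strand, close to HSP10 at 370524 to 370844 on the minus strand. HSP60 occupies chromosome XII from 663284 to 665002, MDJ1 chromosome VI from 104701 to 106236 and ZUO1 chromosome VII from 1061852 to 1063153, each on the minus strand. YDJ1 and SIS1 share chromosome XIV, at 505868 to 507097 and at 618507 to 619565, also on the minus strand. The annotated coding lengths of the species' orthologs were equal for 5 of the 9 genes. They differed most for SIS1, at 1059 bases for S. cerevisiae against 1092 for S. paradoxus, and for HSC82, at 2118 against 2133 bases.

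The study compared mRNA abundance, ribosome occupancy and their ratio between the species and within the hybrid. The strains were GSY83 for S. cerevisiae, GSY82 for S. paradoxus and GSY88 for the hybrid, all diploid, grown in YEP+D (rich medium with glucose) at 30 °C to an OD600 of 0.6 to 0.9 and exposed to cycloheximide, which stalls ribosomes on mRNA, for 5 min before extraction. No heat shock or other stress is given in the labels. Each strain had 2 RNA-seq and 2 Ribo-seq libraries, 12 in all, and hybrid reads were split by allele, which makes 16 columns in 8 groups of 2. Each species is represented by 1 strain, and no label tells if replicates came from separate cultures, so p-values reflect the spread among these libraries, which may be technical. All values are shares of the reads of a bulk culture, in which fewer expressing cells and less RNA per cell cannot be told apart.

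The columns held 6116133 to 8910405 counts. The 9 genes took 0.449% to 0.851% of the RNA-seq counts and 1.2% to 1.55% of the Ribo-seq counts of a column. Replicate columns correlated at r = 0.95 to 0.993 across genes, lowest for the hybrid RNA-seq libraries. As a check of the labelled ploidy, 5 haploid-specific genes (STE2, STE3, MFA1, STE6 and HO) summed to 115 to 124 CPM (counts scaled to the column total; the CPM of the 9 genes also carry the TMM scaling factor) in the S. cerevisiae RNA-seq columns, 52.3 to 54.1 CPM in those of S. paradoxus and 75.6 to 94.7 CPM in the hybrid allele columns. MFA1 had 1 to 15 reads, HO 1 to 27 and STE3 3 to 73 in a column, while STE2 had 9 to 438 and STE6 14 to 366, so not all of these markers were near 0. STE2, STE6 and MFA1 were higher in S. cerevisiae than in S. paradoxus mRNA, and their part in the results below was not tested.

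Levels were compared between genes only as reads per kilobase of coding sequence, scaled for depth as in CPM (RPKM). In S. cerevisiae mRNA, ZUO1 was highest at 739 ± 30.2 RPKM (SD, n = 2), above HSP10 at 414 ± 31.8, HSC82 at 386 ± 24.1 and YDJ1 at 378 ± 24.9, whose replicates overlapped. HSP60 at 168 ± 2.34 RPKM, STI1 at 141 ± 5.21, SIS1 at 114 ± 7.54, HSP82 at 80.8 ± 2.70 and MDJ1 at 36.4 ± 0.466 followed, with no overlap between neighbours. The order differed in S. paradoxus mRNA, where HSC82 at 1202 ± 154 RPKM and ZUO1 at 1138 ± 167 were on top with overlapping replicates. HSP82 there reached 431 ± 224 RPKM, a spread that covered YDJ1 at 474 ± 21.3 and HSP60 at 347 ± 4.01. MDJ1 was the lowest of the 9 in S. paradoxus as well, at 65.0 ± 13.9 RPKM.

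On ribosomes, HSC82 was the highest of the 9 genes in both parents and for both hybrid alleles. Its occupancy was 3081 ± 236 RPKM (SD, n = 2) in S. cerevisiae against 2779 ± 598 in S. paradoxus, which put it at the 98.5th and 97.8th percentile of all genes. In S. cerevisiae the next genes were HSP60 at 1417 ± 149 RPKM and ZUO1 at 1301 ± 88.8, whose replicates overlapped. MDJ1 was the lowest of the 9 in every source, at 111 ± 12.03 RPKM in S. cerevisiae and 141 ± 25.3 in S. paradoxus.

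**Figure D1:**
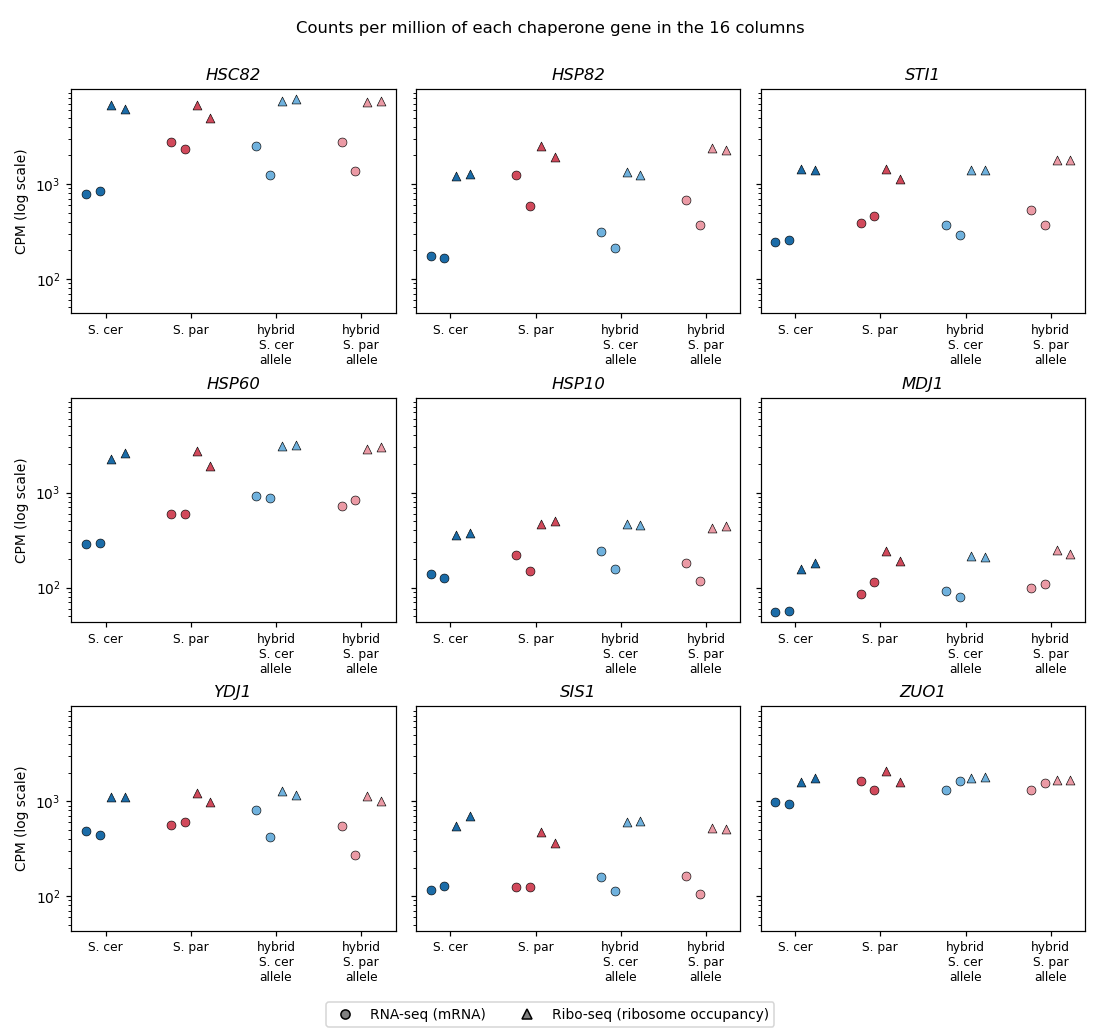
CPM of the 9 genes on a log axis, 1 panel per gene, with circles for RNA-seq and triangles for Ribo-seq and 2 replicate columns for each parent and each hybrid allele. The S. cerevisiae RNA-seq circles of HSC82, HSP82 and HSP60 sit below all others of the same panel, while the Ribo-seq triangles lie closer together.

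Between the parents, mRNA of most of the 9 genes was lower in S. cerevisiae. Of the 9, 6 were lower and none higher by the quasi-likelihood test of edgeR, with a Benjamini-Hochberg adjusted p below 0.05: HSC82, HSP82, STI1, HSP60, MDJ1 and ZUO1. Over all genes tested, 43.5% were called in this comparison and 21.6% were called lower in S. cerevisiae. The median log2 difference, S. cerevisiae over S. paradoxus, was -0.78 for the 9 genes and -0.00 for all genes, and 9 of the 9 estimates were negative.

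The Hsp90 pair showed the largest differences of the group. HSC82 had 781 and 854 CPM in the S. cerevisiae RNA-seq replicates and 2795 and 2331 CPM in those of S. paradoxus. The groups did not overlap, and the level in S. cerevisiae was 3.14-fold lower (log2 difference -1.65, SE 0.33, edgeR adjusted p = 0.00143). HSP82 had 176 and 168 CPM in S. cerevisiae and 1257 and 581 CPM in S. paradoxus, so that the S. paradoxus replicates differed among themselves but lay far above both of the other species. Its level was 5.34-fold lower in S. cerevisiae (log2 difference -2.42, SE 0.35, edgeR adjusted p = 0.00017). Without S. paradoxus RNA-seq replicate 1 the difference of HSP82 was -1.76 and without replicate 2 it was -2.87, and it passed the test in both cases. Because the coding sequences of the pair are near-identical and the treatment of reads that match both is not stated in the sources used, their separate counts are uncertain; summed, the pair was lower in S. cerevisiae by a log2 difference of -1.82 (SE 0.33, edgeR adjusted p = 0.000759). STI1, which bridges Hsp90 and Hsp70, had 242 and 255 CPM in S. cerevisiae and 392 and 464 CPM in S. paradoxus, a log2 difference of -0.78 (SE 0.19, edgeR adjusted p = 0.00568). That call was lost without S. cerevisiae RNA-seq replicate 1, where the adjusted p was 0.0512.

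In the mitochondrial set, HSP60 had 286 and 292 CPM in S. cerevisiae and 591 and 601 CPM in S. paradoxus. Its replicates were close to each other in both species, and the level was 2.06-fold lower in S. cerevisiae (log2 difference -1.05, SE 0.17, edgeR adjusted p = 0.000393). MDJ1 had 55.5 and 56.5 CPM in S. cerevisiae and 84.7 and 115 CPM in S. paradoxus, a 1.78-fold lower level (log2 difference -0.83, SE 0.18, edgeR adjusted p = 0.00262). The co-chaperonin HSP10 had 140 and 126 CPM in S. cerevisiae and 220 and 150 CPM in S. paradoxus. The replicates of HSP10 did not overlap, but the log2 difference of -0.47 (95% interval -0.999 to 0.05) did not pass the test, with an edgeR adjusted p of 0.133. HSP10 passed without hybrid RNA-seq replicate 1 (adjusted p = 0.0209) and without replicate 2 (adjusted p = 0.0181), when the shared estimate of the spread came from the other libraries.

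Of the cytosolic J-domain genes, ZUO1 was lower in S. cerevisiae and YDJ1 and SIS1 did not pass the test. ZUO1 had 990 and 934 CPM in S. cerevisiae and 1636 and 1328 CPM in S. paradoxus, and was 1.54-fold lower in S. cerevisiae (log2 difference -0.62, SE 0.18, edgeR adjusted p = 0.0116). This call was lost when either of the S. cerevisiae RNA-seq replicates or the first S. paradoxus one was left out, with adjusted p-values of up to 0.095. YDJ1 had 486 and 443 CPM against 565 and 602 CPM, a log2 difference of -0.33 (95% interval -0.998 to 0.34). SIS1 had 116 and 127 CPM against 124 and 124 CPM, with overlapping groups and a log2 difference of -0.03 (95% interval -0.51 to 0.45).

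**Figure D2:**
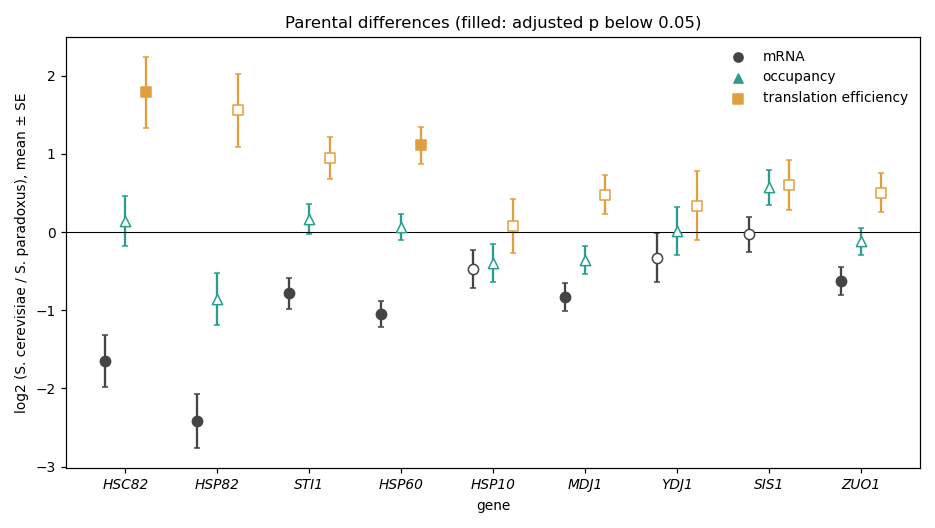
Log2 difference between the parents, S. cerevisiae over S. paradoxus, with its standard error, for mRNA (circles), occupancy (triangles) and translation efficiency (squares); filled symbols had an adjusted p below 0.05. The mRNA circles run from -2.42 for HSP82 to -0.03 for SIS1, the occupancy triangles scatter around 0, and the squares of 9 genes are above 0.

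In ribosome occupancy, none of the 9 genes was called between the parents by edgeR, where 33% of all genes were; 2 of the 9 had an unadjusted p under 0.05, and DESeq2 called 1. The median log2 difference was 0.01 for the 9 genes and 0.02 for all genes, with 5 estimates above 0 and 4 below. HSC82 had 6879 and 6174 CPM on S. cerevisiae ribosomes and 6830 and 5025 CPM on those of S. paradoxus. These groups overlapped, with a log2 difference of 0.14 (95% interval -0.55 to 0.83). HSP60 had 2254 and 2617 CPM against 2737 and 1914 CPM, also overlapping, with a log2 difference of 0.07 (95% interval -0.29 to 0.43).

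STI1 had 1457 and 1407 CPM in S. cerevisiae and 1427 and 1125 CPM in S. paradoxus occupancy, with overlapping groups and a log2 difference of 0.17 (95% interval -0.25 to 0.58). Overlap was also seen for YDJ1, with 1118 and 1098 CPM against 1227 and 971 CPM, and for ZUO1, with 1612 and 1776 CPM against 2087 and 1595 CPM. HSP82, HSP10, MDJ1 and SIS1 did not overlap between the species, though none of them was called by edgeR over all columns. The share of all genes without overlap was not computed. HSP82 had 1203 and 1263 CPM in S. cerevisiae and 2543 and 1924 CPM in S. paradoxus, a log2 difference of -0.86 (95% interval -1.57 to -0.14, edgeR adjusted p = 0.0629). SIS1 went the other way, with 547 and 692 CPM against 470 and 362 CPM, a log2 difference of 0.57 (95% interval 0.09 to 1.05, edgeR adjusted p = 0.0642). HSP10 had 362 and 378 CPM against 473 and 501 CPM, and MDJ1 had 157 and 183 CPM against 244 and 189 CPM. In the S. paradoxus Ribo-seq libraries, replicate 1 was above replicate 2 for 8 of the 9 genes, with a median log2 difference between replicates of 0.38, where the median over all genes was 0.02; its part in the result was not tested. Without either S. paradoxus RNA-seq replicate HSP82 passed the test (adjusted p = 0.0277), and without either hybrid RNA-seq replicate 3 genes did: HSP82 and HSP10 as lower and SIS1 as higher in S. cerevisiae, with adjusted p-values of up to 0.0469.

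Translation efficiency, the ratio of occupancy to mRNA, was higher in S. cerevisiae by the test for HSC82 and HSP60, and the estimate was above 0 for 9 of the 9 genes. Over all genes, 3.47% were called in this comparison and 2.02% were called higher in S. cerevisiae; the median log2 difference was 0.60 for the 9 genes and 0.04 for all genes. These values use the same RNA-seq columns as the mRNA comparison and are not independent of it. HSC82 had a log2 difference of 1.79 (SE 0.46, edgeR adjusted p = 0.0488) and HSP60 one of 1.11 (SE 0.24, edgeR adjusted p = 0.0248). HSP82 reached 1.56 (SE 0.47, edgeR adjusted p = 0.0941) and STI1 0.95 (SE 0.27, edgeR adjusted p = 0.076), and neither passed in this fit. Over the same libraries DESeq2 called HSP82 and STI1 (DESeq2 adjusted p = 0.0225 and 0.0167). So did edgeR with replicate number as a block (edgeR adjusted p = 0.024 and 0.0445). Both passed without either hybrid RNA-seq replicate (adjusted p up to 0.0151), and HSP82 passed without S. paradoxus RNA-seq replicate 2, at 2.01 (adjusted p = 0.025). The remaining 5 genes lay between 0.08 for HSP10 and 0.60 for SIS1. The HSC82 call was lost without any 1 of the parental libraries or of the hybrid Ribo-seq libraries, or when genes with low counts were kept, with adjusted p-values of up to 0.227, and with HSC82 and HSP82 summed the difference was 1.74 (edgeR adjusted p = 0.0528). The HSP60 call was lost without any 1 of S. cerevisiae RNA-seq replicates 1 and 2, S. cerevisiae Ribo-seq replicates 1 and 2, S. paradoxus RNA-seq replicate 1, S. paradoxus Ribo-seq replicate 2 and the hybrid Ribo-seq replicates 1 and 2, with adjusted p-values of up to 0.125.

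Within each strain, the chaperone genes other than ZUO1 had far more ribosome footprints per mRNA read than most genes. HSP60 had the highest ratio of the 9 in S. cerevisiae, with a log2 ratio of Ribo-seq over RNA-seq CPM of 3.07 (2.95 to 3.19 over the replicate combinations), at the 99.6th percentile of the genes tested, whose median was -0.04. HSC82 followed at 2.996 (2.85 to 3.14) and HSP82 at 2.84 (2.77 to 2.91), overlapping with each other. STI1 stood at 2.52 and SIS1 at 2.34, MDJ1 at 1.59, HSP10 at 1.48 and YDJ1 at 1.25. ZUO1 was the lowest at 0.82, the 83.7th percentile.

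In S. paradoxus the same quantity was 1.94 for HSP60 (1.67 to 2.21), 1.74 for SIS1 (1.55 to 1.93), 1.57 for STI1, 1.42 for HSP10, 1.37 for HSP82 (0.61 to 2.13), 1.198 for HSC82 (0.85 to 1.55), 1.12 for MDJ1 and 0.90 for YDJ1. These 8 genes were all at or above the 92.2nd percentile, while ZUO1 at 0.31 stood at the 68.9th. The range of HSC82 lay wholly below its range in S. cerevisiae, and so did those of HSP82, HSP60, STI1, SIS1, YDJ1 and ZUO1. The ranges of HSP10 and MDJ1 overlapped between the species. The share of all genes with such separate ranges was not computed. By the test of translation efficiency above, only HSC82 and HSP60 were called, while YDJ1, SIS1 and ZUO1 had edgeR adjusted p = 0.75, 0.358 and 0.317. In the hybrid, both alleles of HSP82 had the highest ratio, 2.32 for the S. cerevisiae allele and 2.22 for the S. paradoxus allele, at the 99.7th and 99.5th percentile, though its range overlapped those of HSC82, STI1 and SIS1 for both alleles, and also those of HSP60, HSP10 and YDJ1 for the S. paradoxus allele. ZUO1 was again lowest, at 0.27 and 0.23, near the 64.9th and 63.5th percentile. Apart from ZUO1, which encodes the ribosome-bound J-domain protein, no gene of the 9 was below the 92.2nd percentile in any source.

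**Figure D3:**
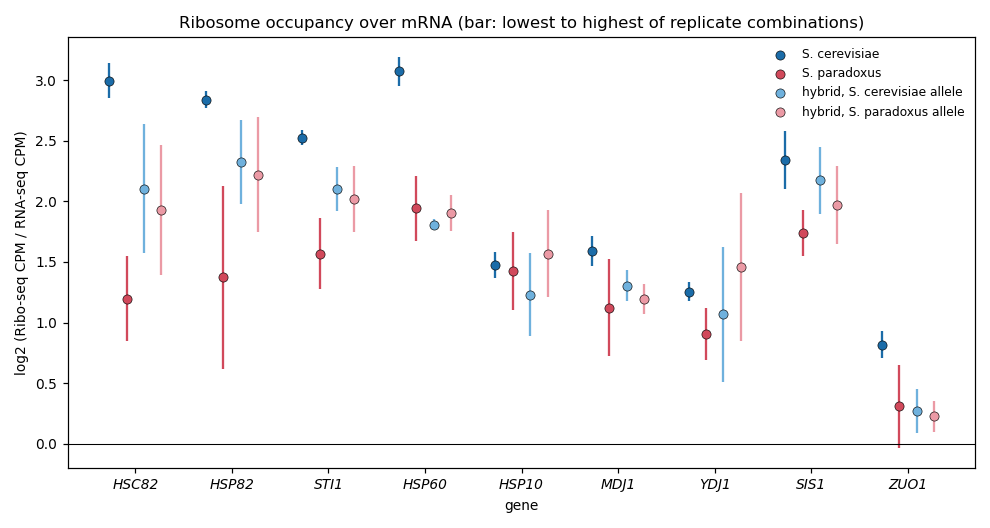
Log2 of Ribo-seq CPM over RNA-seq CPM for each gene in the 4 sources, with points at the replicate mean and bars from the lowest to the highest combination of replicates; 0 marks equal CPM in both assays. HSC82, HSP82 and HSP60 are near 3 in S. cerevisiae and between 1.198 and 1.94 in S. paradoxus, and ZUO1 is the lowest gene in each source.

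In the hybrid, where both alleles share the same cells, the allelic difference in mRNA was small for most of the genes. None of the 9 was called by edgeR over the 16 columns, where 13% of all genes were; 2 had an unadjusted p under 0.05 and DESeq2 called 1. HSC82 had 2538 and 1254 CPM from the S. cerevisiae allele and 2760 and 1357 CPM from the S. paradoxus allele, so that the replicate libraries differed far more than the alleles. The S. cerevisiae allele gave 47.4% of the allele-assigned reads in replicate 1 (exact 95% interval 46.9% to 47.9%) and 47.2% in replicate 2 (46.5% to 47.9%). These intervals cover counting error only.

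Both alleles of a hybrid library come from the same cells and share that library's deviation, so the hybrid columns were also fitted alone with the library as a block. In that paired fit 5 of the 9 genes were called, 2 with the S. cerevisiae allele lower and 3 with it higher, beside 2124 of 5129 genes tested. HSP82 had 314 and 210 CPM from the S. cerevisiae allele and 679 and 369 CPM from the S. paradoxus allele, without overlap. Its log2 difference was -1.001 (SE 0.33, edgeR adjusted p = 0.0671), and with the library block -0.94 (SE 0.08, edgeR adjusted p = 1.19e-05). Without either S. paradoxus RNA-seq replicate the difference passed also without the block, with an adjusted p of up to 0.0299. STI1 had 369 and 290 CPM against 531 and 368 CPM, overlapping between libraries but lower for the S. cerevisiae allele in each. The difference for STI1 was -0.45 (edgeR adjusted p = 0.151), and -0.41 with the block (SE 0.07, edgeR adjusted p = 0.000836).

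YDJ1 was the opposite case, with 813 and 416 CPM from the S. cerevisiae allele and 553 and 270 CPM from the S. paradoxus allele. The S. cerevisiae allele gave 59.1% and 59.8% of its RNA-seq reads, and the log2 difference was 0.58 (edgeR adjusted p = 0.255), or 0.61 with the library block (SE 0.06, edgeR adjusted p = 4.95e-05). Without hybrid RNA-seq replicate 1 it was 0.65 and passed (edgeR adjusted p = 0.0365). HSP10 had 244 and 157 CPM against 182 and 117 CPM, a log2 difference of 0.42, or 0.45 with the block (SE 0.08, edgeR adjusted p = 0.00169). HSP60 had 915 and 876 CPM against 726 and 845 CPM, a log2 difference of 0.19, or 0.22 with the block (SE 0.07, edgeR adjusted p = 0.0223). Its S. cerevisiae share was 55.3% in replicate 1 and 50.1% in replicate 2, so this difference came mainly from the former. MDJ1 had 91.9 and 79.2 CPM against 98.7 and 108 CPM. SIS1 had 161 and 113 CPM against 162 and 106 CPM. ZUO1 had 1319 and 1639 CPM against 1316 and 1561 CPM. None of MDJ1, SIS1 and ZUO1 was called in either fit, nor was HSC82. A limma voom fit with a random library effect called 5 of the 9 genes, beside 2484 of 5158 tested. It called HSP82, STI1 and MDJ1 as lower for the S. cerevisiae allele, and HSP10 and YDJ1 as higher. MDJ1 was at -0.27 there (limma voom adjusted p = 0.0387).

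In occupancy, too, the S. cerevisiae allele was lower for HSP82 and STI1 with the library block. None of the 9 genes was called by edgeR over the 16 columns, where 8.74% of all genes were; 1 had an unadjusted p under 0.05 and DESeq2 called none. The library block called 4, beside 1464 of 5129 genes. HSP82 had 1337 and 1235 CPM from the S. cerevisiae allele and 2392 and 2281 CPM from the S. paradoxus allele, well apart. The log2 difference was -0.86 (SE 0.33, edgeR adjusted p = 0.141), or -0.87 with the block (SE 0.07, edgeR adjusted p = 1.38e-05). It passed over the remaining columns without either hybrid RNA-seq replicate, with an adjusted p of up to 0.0313. The S. cerevisiae allele of HSP82 gave 35.2% and 34.7% of the footprints and 31.2% and 35.4% of the RNA-seq reads. STI1 had 1413 and 1398 CPM against 1805 and 1780 CPM, a log2 difference of -0.35, or -0.36 with the block (edgeR adjusted p = 0.00231).

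The S. cerevisiae allele was higher in occupancy with the block for SIS1, with 600 and 618 CPM against 521 and 509 CPM (log2 difference 0.23, edgeR adjusted p = 0.0443). It was also higher for YDJ1, with 1284 and 1159 CPM against 1133 and 994 CPM (log2 difference 0.19, edgeR adjusted p = 0.0388). HSC82 had 7558 and 7790 CPM against 7255 and 7475 CPM. HSP60 had 3111 and 3161 CPM against 2850 and 3010 CPM. For these genes and for HSP10, MDJ1 and ZUO1, whose allele shares ran from 45.7% to 51.8% in the Ribo-seq libraries, no difference was called in either fit.

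Allelic translation efficiency was called for none of the 9 genes by edgeR over the 16 columns, where 1.38% of all genes were; none of the 9 had an unadjusted p under 0.05 and DESeq2 called none. The estimates ran from -0.38 for YDJ1 to 0.21 for SIS1. With the library block, YDJ1 was called with a log2 difference of -0.42 (SE 0.09, edgeR adjusted p = 0.0172), beside 426 of 5129 genes. The interval for HSC82 without the block was -0.80 to 1.15 and that for HSP60 -0.60 to 0.42.

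The parental mRNA ratio was then set against the allelic ratio in an interaction test. The parental ratio was lower than the allelic ratio for HSC82 and HSP60, and 9 of the 9 estimates were negative, with a median of -0.89 beside 0.03 for all genes. In this comparison 12.4% of all genes were called and 5.51% were called lower. For HSC82 the parental log2 ratio of -1.65 and the allelic one of -0.12 differed by -1.53 (SE 0.45, edgeR adjusted p = 0.0441). For HSP60 the ratios of -1.05 and 0.19 differed by -1.23 (SE 0.24, edgeR adjusted p = 0.00629). HSP82 had ratios of -2.42 and -1.001, which differed by -1.42 (SE 0.47, edgeR adjusted p = 0.0647). The difference was -0.91 for YDJ1, -0.89 for HSP10, -0.66 for ZUO1, -0.56 for MDJ1, -0.34 for STI1 and -0.06 for SIS1. None of these passed in edgeR, where the deviation shared within a hybrid library was not modelled. A limma voom fit with a random library effect called 6 of the 9 genes, all lower. It added HSP82 at -1.34, HSP10 at -0.87, ZUO1 at -0.65 and YDJ1 at -0.92 (limma voom adjusted p = 0.00852, 0.0136, 0.0159 and 0.0193). MDJ1, STI1 and SIS1 were not called in that fit either. The HSC82 call was lost without any 1 of the parental libraries or of the hybrid Ribo-seq libraries (adjusted p up to 0.129), while that of HSP60 was kept in each of 18 alternatives. The number of genes called ranged from 1 to 5 as single libraries were left out, and was 5 without hybrid RNA-seq replicate 1, where HSP82, HSP10 and YDJ1 were added, and 4 without replicate 2, where HSP10 and YDJ1 were. It was 1 without any 1 of the other libraries, except that without S. paradoxus RNA-seq replicate 2 HSP82 (-1.87, edgeR adjusted p = 0.0209) took the place of HSC82.

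For occupancy, the parental and allelic ratios were not told apart for any of the 9 genes by edgeR, where 6.98% of all genes were called; none had an unadjusted p under 0.05 and DESeq2 called none. The differences ran from -0.48 for HSP10 to 0.52 for STI1. HSP82 had almost the same value in both, -0.86 between the parents and -0.86 between the alleles, with a 95% interval of -1.001 to 1.008 for the difference. For translation efficiency, 0% of all genes and none of the 9 were called by edgeR. An unadjusted p under 0.05 was seen for 3 of the 9 and for 241 of all genes. DESeq2 called 10 genes, among them 1 of the 9, HSP60 (DESeq2 adjusted p = 0.0303). The edgeR estimate for HSP60 was 1.203 (95% interval 0.48 to 1.93).

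**Figure D4:**
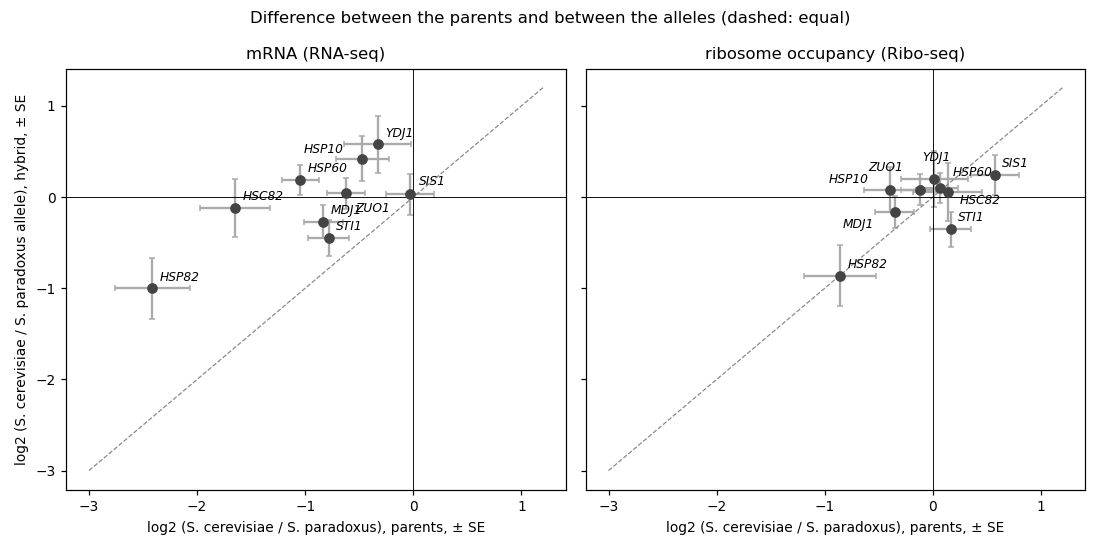
Parental log2 ratio on the x axis against the allelic log2 ratio in the hybrid on the y axis, with standard errors, for mRNA on the left and ribosome occupancy on the right; the dashed line marks equal ratios. For mRNA all 9 points lie above the line, HSC82 at -1.65 and -0.12, whereas for occupancy HSP82 lies on the line at -0.86.

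Summing both alleles gave the total output of the hybrid, which was compared with each parent in a fit of 12 libraries. Both comparisons share the hybrid libraries. Total mRNA was higher in the hybrid than in S. cerevisiae for 6 of the 9 genes and lower for none, where 25.4% of all genes were called and 14.2% were called higher. Against S. paradoxus, 1 of the 9 was lower, HSP82, and none higher, where 25.7% of all genes were called and 10.9% were called lower. The median log2 difference of the 9 genes was 0.62 against S. cerevisiae and -0.10 against S. paradoxus.

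HSP60 had 821 and 854 CPM in the hybrid, above both parents. Its total was 2.86-fold higher than in S. cerevisiae (log2 difference 1.51, SE 0.18, edgeR adjusted p = 0.000264), and against S. paradoxus the difference was 0.47 (SE 0.18, edgeR adjusted p = 0.0695). HSC82 had 2656 and 1297 CPM in the hybrid, where replicate 1 was within the S. paradoxus range and replicate 2 lay between the parents. It was 2.38-fold higher than in S. cerevisiae (log2 difference 1.25, SE 0.27, edgeR adjusted p = 0.00755), with 0.61 and 1.68 when hybrid RNA-seq replicate 1 and replicate 2 were left out. Against S. paradoxus its difference was -0.40 (95% interval -0.99 to 0.19), but -1.02 without hybrid RNA-seq replicate 1 (edgeR adjusted p = 0.00279), which passed the test, as did that of YDJ1, at -0.81 (edgeR adjusted p = 0.00314). HSP60 passed against S. paradoxus without either S. paradoxus Ribo-seq replicate, with an adjusted p of up to 0.0411.

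HSP82 had 499.5 and 289 CPM in the hybrid, between the parents in both replicates. It was higher than in S. cerevisiae by a log2 difference of 1.17 (SE 0.32, edgeR adjusted p = 0.0202) and lower than in S. paradoxus by one of -1.24 (SE 0.32, edgeR adjusted p = 0.0174). The latter was lost without S. paradoxus RNA-seq replicate 1, where it was -0.59 (edgeR adjusted p = 0.178), and without hybrid RNA-seq replicate 2, where it was -0.90. MDJ1, with 95.5 and 93.1 CPM, STI1, with 452 and 327 CPM, and ZUO1, with 1320 and 1588 CPM, were higher than in S. cerevisiae by log2 differences of 0.73, 0.62 and 0.57 (edgeR adjusted p = 0.0136, 0.0294 and 0.0345). YDJ1 had 683 and 340 CPM, SIS1 162 and 109 CPM and HSP10 213 and 136 CPM, each overlapping S. cerevisiae. Without either S. cerevisiae RNA-seq replicate, HSP60 alone remained called against that species. Without hybrid RNA-seq replicate 1 the calls of HSP82 (0.69) and STI1 (0.34) were lost, and without replicate 2 that of ZUO1 (0.43). Without hybrid RNA-seq replicate 2, HSP10 (0.66) and YDJ1 (0.53) were called higher, whereas without replicate 1 YDJ1 was called lower (-0.508, edgeR adjusted p = 0.0374). ZUO1 was also lost without either hybrid Ribo-seq replicate, with adjusted p-values of up to 0.199 over its alternatives.

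Total occupancy in the hybrid was called for none of the 9 genes against either parent by edgeR, where 12.7% of all genes were called against S. cerevisiae and 7.62% against S. paradoxus. An unadjusted p under 0.05 was seen for 1 and for none of the 9, and DESeq2 called none in either comparison. HSC82 had 7504 and 7717 CPM on hybrid ribosomes, above all 4 parental replicates, with log2 differences of 0.20 (95% interval -0.39 to 0.79) and 0.33 (95% interval -0.26 to 0.92). HSP60 had 3019 and 3120 CPM, also above all 4 parental replicates, with differences of 0.31 and 0.37. HSP82 had 1897 and 1782 CPM, between the parents, and the hybrid replicates were within a narrower range than those of its mRNA.

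The hybrid RNA-seq replicates differed widely for part of the group. HSC82 and YDJ1 were about 2.02-fold and 1.95-fold higher in replicate 1 than in replicate 2 for the S. cerevisiae allele, and the S. paradoxus allele showed the same. Replicate 1 was higher for 8 of the 9 genes from the S. cerevisiae allele and for 6 from the S. paradoxus allele. The median size of the log2 difference between replicates was 0.51 and 0.61 for the 9 genes and 0.41 and 0.41 for all genes. In the hybrid Ribo-seq libraries it was 0.04 and 0.07 for the 9 genes and 0.14 and 0.14 for all genes.

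The make-up of the Hsp90 pair was set side by side across the sources. Per kilobase, HSP82 made up 14.8% and 16.9% of the HSC82 plus HSP82 occupancy in S. cerevisiae, and 27.1% and 27.7% in S. paradoxus. The hybrid alleles kept the order, with 15.0% and 13.6% for the S. cerevisiae allele and 24.8% and 23.4% for the S. paradoxus allele. The species did not overlap in either setting. In mRNA the shares were 18.3% and 16.4% for S. cerevisiae against 31.0% and 19.9% for S. paradoxus. They were 11% and 14.2% for the S. cerevisiae allele and 19.7% and 21.4% for the S. paradoxus allele. As the reads were assigned, HSC82 held the larger part of the pair's reads in all 16 columns. These shares are uncertain, because the treatment of reads that match both near-identical genes is not stated. No test was made on these shares.

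**Figure D5:**
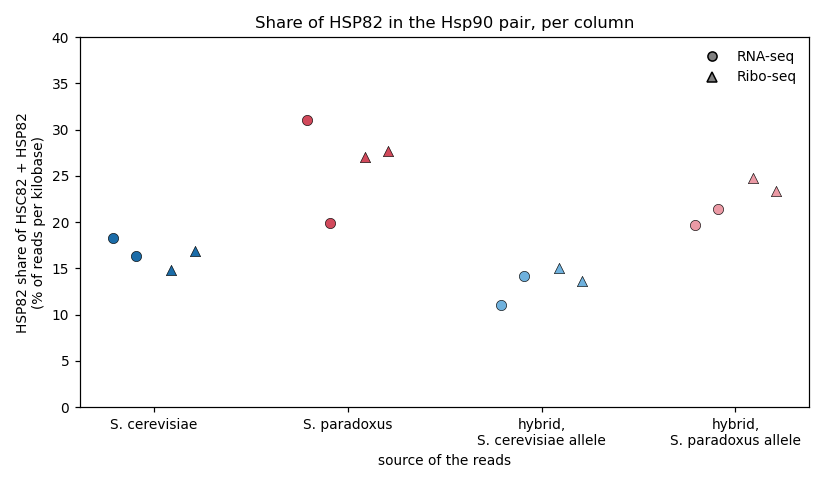
Share of HSP82 in the summed reads per kilobase of HSC82 and HSP82, in percent, for each of the 16 columns, with circles for RNA-seq and triangles for Ribo-seq. The S. cerevisiae and S. cerevisiae allele columns lie between 11% and 18.3%, and those of S. paradoxus and its allele between 19.7% and 31.0%.

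The chaperonin and its lid were also set side by side. In occupancy, HSP60 exceeded HSP10 per kilobase by 1.16 and 1.29 in S. cerevisiae, and the ratio was 1.08 and 0.713 in S. paradoxus. It was 1.24 and 1.31 for the S. cerevisiae allele and 1.26 and 1.26 for the S. paradoxus allele of the hybrid. In mRNA the ratio was 0.381 and 0.433 in S. cerevisiae, below that in occupancy without overlap. It was 0.503 and 0.75 in S. paradoxus, where the assays overlapped, and 0.70 to 1.35 in the hybrid. HSP10 thus had more mRNA reads per kilobase than HSP60 in the parents, and HSP60 had more footprints per kilobase in S. cerevisiae and the hybrid. The coding sequence of HSP10 has 321 bases, so its reads per kilobase rest on fewer counts than those of HSP60.

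Genes that work with the 9 were counted in the same fits. Of 11 other Hsp90 cochaperones, 6 were lower in S. cerevisiae mRNA and none higher, with a median log2 difference of -0.65, where 43.5% of all genes were called and 21.6% called lower. Among them were the Hsp90 phosphatase PPT1 at -0.96 (edgeR adjusted p = 0.00105), the Hsp90 ATPase activator AHA1 at -0.88 (edgeR adjusted p = 0.00127) and the cochaperone CNS1 at -1.27 (edgeR adjusted p = 0.00574). In addition, 3 of the 11 were lower in occupancy and none higher, where 33% of all genes were called in either direction. The share of all genes called lower alone is not given here. The 3 were HCH1, AHA1 and CNS1 at -0.80, -0.57 and -0.88. In translation efficiency none of the 11 was called, where 3.47% of all genes were.

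The 12 partner genes of the J-domain members are Hsp70 genes, the Hsp110 genes SSE1 and SSE2 and the nucleotide exchange factor genes MGE1 and FES1. Of these, 6 were lower in S. cerevisiae mRNA and 2 higher, where 43.5% of all genes were called and 21.6% called lower. The cytosolic SSA2 was at -1.61 (edgeR adjusted p = 3.57e-05), SSZ1, the partner of Zuo1, at -0.89 (edgeR adjusted p = 0.000541) and the ribosome-associated SSB2 at -1.01 (edgeR adjusted p = 0.00111). The higher genes, named after their values were seen, were SSE2 at 0.84 and SSA3 at 1.02. Translation efficiency was higher in S. cerevisiae for SSA2, at 1.14 (edgeR adjusted p = 0.0307), and for SSC1, the matrix Hsp70 that Mdj1 serves, at 0.99 (edgeR adjusted p = 0.0435). The parental mRNA ratio was below the allelic ratio for 5 of the 12, SSA2 at -1.55 and SSE1 at -1.05 among them, and above it for SSE2, at 2.45, where 12.4% of all genes were called and 5.51% called lower. Counts of SSA1 and SSA2, and of SSB1 and SSB2, are uncertain because each pair is near-identical.

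Of 17 other J-domain genes, 16 were in the table and tested. In S. cerevisiae mRNA 5 were lower and none higher, not far from the 21.6% of all genes called lower, with a median log2 difference of -0.02. The endoplasmic reticulum protein gene JEM1 was at -0.90, JJJ3 at -1.08 and CWC23 at -0.71. The parental and allelic mRNA ratios were not told apart for any of these 16, where 12.4% of all genes were called. Of 14 other chaperone genes known as Hsf1 targets, 13 were tested, and 9 of these 13 also stand in the lists above (SSA1, SSA2, SSA4, SSE1, FES1, CPR6, AHA1, HCH1 and APJ1). In S. cerevisiae mRNA 6 of the 13 were lower and 2 higher, where 43.5% of all genes were called and 21.6% called lower. Of the 6, 5 were counted above, and BTN2 at -1.64 (edgeR adjusted p = 0.000178) was not. These 2, named after their values were seen, were the disaggregase HSP104 at 0.71 and the small heat shock protein gene HSP42 at 1.85. The Hsf1 list thus held genes called in both directions between the parents, as did the whole set of genes tested.

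Over the 16 columns, the genes outside the group whose log2 CPM was most like that of each member were found by Pearson's r, as a description; the columns share assay and library, which raises r for all genes. HSP60 was closest to SSC1 (r = 0.986) and the valyl-tRNA synthetase gene VAS1 (r = 0.985). HSC82 was closest to SEY1 (r = 0.98) and the threonyl-tRNA synthetase gene THS1 (r = 0.976), and HSP82 to RPL29 (r = 0.974) and POL30 (r = 0.972). STI1 was closest to SCP160 (r = 0.984) and PUB1 (r = 0.981), HSP10 to the ribosomal protein genes RPL32 (r = 0.992) and RPL33B (r = 0.989), and MDJ1 to the poly(A)-binding protein gene PAB1 (r = 0.987) and SSA2 (r = 0.98). Of the J-domain genes of the cytosol, SIS1 was closest to RAD6 (r = 0.985) and EDE1 (r = 0.98), and YDJ1 to the translation release factor gene SUP45 (r = 0.987) and NAT1 (r = 0.978). ZUO1 had the lowest likeness, with SSB2 (r = 0.948) and the elongation factor gene YEF3 (r = 0.934).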

How the data were processed

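RNA-seq and Ribo-seq were deposited as 1 table of read counts per gene, which per the file headers holds raw counts for 16 columns with gene coordinates for each species. The submitters' processing notes name CASAVA 1.8, cutadapt 1.2.1, Bowtie 0.12.8, bedtools 2.17.0 and the build sacCer3; their settings, the assignment of reads to alleles, the use of strand in counting and the meaning of "Mix" in the parental column names are not stated in the sources used. Column totals of the species agree closely within an assay and replicate number.

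Counts were tested in R 4.3.3 with edgeR 4.0.16 (quasi-likelihood, TMM, filterByExpr with a minimum count of 10, group means over 16 columns, residual df 8). Hybrid totals were fitted over 12 libraries, and p-values were adjusted over all genes tested with a threshold of 0.05. CPM are scaled by TMM, so each column, each allele included, is relative to its own total. Alternatives used DESeq2 1.42.0, limma 3.58.1 (voom), other scaling, filters, offsets, blocks and left-out libraries.

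The members and lists were chosen with earlier results of these data known. All 9 members are named; up to 3 called genes per list with the lowest adjusted p, and the 2 genes most like each member by r, are named by rule. The alleles of a hybrid library come from the same RNA and are therefore paired (their deviations correlate at r = 0.801 in RNA-seq and 0.346 in Ribo-seq). Symbols were matched to RefSeq for 5183 of 5226 IDs.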

Additional observations from a re-analysis of the deposited data

Results flagged for a closer look

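The parental mRNA ratio differed from the allelic mRNA ratio, by the interaction test of edgeR, for HSC82 (-1.53 on the log2 scale) and for HSP60 (-1.23). For HSC82 the parents differed by -1.65 and the alleles by -0.12; for HSP60 the parents differed by -1.05 and the alleles by 0.19. The cause was not tested. With 2 columns in each group, no group was large enough for a search for single outlying samples.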

How the results depend on the processing

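Of 17 called gene results, 6 kept direction and call under each alternative run: parental mRNA of HSC82, HSP82, HSP60 and MDJ1, the parental minus allelic mRNA difference of HSP60, and its hybrid total against S. cerevisiae. Leaving out a library leaves that group with 1 column, which is assumed to vary like the others.

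The number of the 9 genes called moved as follows; the cause was not tested. Parental occupancy (0) became 1 with DESeq2, 2 with limma voom, 2 with the parental columns alone, 1 with coding length as offset and 0 to 3 with libraries left out. Parental translation efficiency (2) became 4 with DESeq2, 1 with no filter, 1 with HSC82 and HSP82 summed, 4 with the parental columns alone and 0 to 4 with libraries left out. Allelic mRNA (0) became 1 with DESeq2, 5 with limma voom and 0 to 1 with libraries left out. Allelic occupancy (0) became 2 with limma voom and 0 to 1. The parental minus allelic mRNA difference (2) became 4 with DESeq2, 6 with limma voom and 1 to 5, and that of translation efficiency (0) 1 with DESeq2. Hybrid total mRNA against S. cerevisiae (6) ranged from 1 to 7, and against S. paradoxus (1) it became 0 with the pair summed and 0 to 3. Parental mRNA (6) stayed at 4 to 7. YDJ1 hybrid total mRNA against S. cerevisiae reversed without hybrid RNA-seq replicate 1, from 0.12 to -0.508 (edgeR adjusted p = 0.0374), and was 0.533 without replicate 2.

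With replicate number as a block, parental occupancy gave 2, parental translation efficiency 4, allelic mRNA 1 and allelic occupancy 1. The calls it added were HSP82 and SIS1 in parental occupancy (edgeR adjusted p = 0.0191 and 0.0423), HSP82 and STI1 in parental translation efficiency (0.024 and 0.0445), and HSP82 in allelic mRNA, allelic occupancy and parental minus allelic mRNA (0.0172, 0.04 and 0.0169). No label pairs the parental samples by number. Deviations of same-numbered parental columns correlated from -0.06 to 0.311, at 0.209 between the species in RNA-seq and 0.095 in Ribo-seq, and column totals of the species were nearly equal within a number (8910405 and 8904431 in Ribo-seq replicate 1). Whether these columns share a library cannot be told. With the hybrid library as a block, allelic mRNA gave 5, allelic occupancy 4 and allelic translation efficiency 1. Over all genes, parental translation efficiency calls went from 179 to 377 with DESeq2, 306 with the block and 572 with the parental columns alone.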

Other observations

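Among the 13 tested Hsf1-target chaperone genes, the small heat shock protein gene HSP26 stood apart from the 9 genes. Its occupancy was higher in S. cerevisiae than in S. paradoxus by a log2 difference of 3.54 (SE 0.56, edgeR adjusted p = 0.000426), its translation efficiency by 3.04 (SE 0.72, edgeR adjusted p = 0.0382), and its parental mRNA ratio exceeded the allelic one by 2.54 (SE 0.65, edgeR adjusted p = 0.0243). These HSP26 ratios rest on low counts. Its mean occupancy was 20.4 ± 6.91 CPM (SD, n = 2) in S. cerevisiae and 1.69 ± 0.565 CPM in S. paradoxus. Its mean mRNA level was 19.6 ± 6.64 and 13.85 ± 0.155 CPM in these parents. From the S. cerevisiae and S. paradoxus alleles it was 6.50 ± 4.04 and 26.6 ± 7.30 CPM. HSP104 was also higher in S. cerevisiae occupancy, at 1.19 (SE 0.20, edgeR adjusted p = 0.000725), whereas BTN2 was lower, at -2.16 (SE 0.24, edgeR adjusted p = 2.76e-05). The 3 genes were chosen after their values were seen.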
